A study of Mus musculus with 7 samples.

Results

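Imprinted genes are transcribed from a single parental copy, chosen by methylation marks laid down in egg or sperm. The 10 genes described here are imprinted genes known from islets or their growth control: Nnat, Dlk1, Meg3, Peg3, Rasgrf1, Cdkn1c, H19, Igf2, Plagl1 and Grb10. They were listed by name, and a gene counted as measured where a probe set carried its symbol and no other, the probe set with the highest mean being taken if there were several. By that rule 8 of the 10 were measured, each by 1 probe set, among 14807 genes in all. Nnat, which encodes neuronatin of the endoplasmic reticulum, is not analysed here. Meg3, a maternally expressed long non-coding RNA, was annotated to a single probe set that it shared with Dlk1, which was therefore not used for either gene.

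RNA was measured on Affymetrix arrays in mouse pancreatic islets, the hormone-secreting cell clusters of the pancreas. The 3 knockout samples, numbered 5 to 7, came from mice with FoxO1, FoxO3 and FoxO4 deleted in beta cells alone, and the 4 control samples, numbered 1 to 4, from littermates labelled WT. The knockout titles alone carry a further mark, R+, which the sources used here do not explain. All animals shared a mixed 129 x FVBn x C57BL/6 background and cohorts were matched for age and sex, but neither the age, the sex, the driver of the deletion nor its presence in controls is given in the sources used here. FoxO proteins are transcription factors held in the cytoplasm while insulin acts, and the comparison of knockout with control islets addresses how their loss alters islet gene expression. Values are log2 expression, differences are knockout minus control on that scale, and a gene was called at an adjusted p under 0.05 in limma over all genes. Whether a sample pools several animals is not stated, and p-values therefore cover only the spread among these 7 samples. Islets hold several cell types, so fewer cells of a type and less RNA per cell cannot be told apart, and the arrays do not separate the parental copies.

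As checks of the samples, the deleted genes Foxo1, Foxo3 and Foxo4 differed by -0.26 (SE 0.17), -0.16 (SE 0.11) and -0.47 (SE 0.16), none of them called (limma, adjusted p = 0.490, 0.486 and 0.362), and Foxo6, which was not deleted, by 0.07 (SE 0.15). Without controls 3 and 4, which stood apart as described next, Foxo1 differed by -0.50 and Foxo6 by -0.06. All knockouts lay below all controls for Foxo3 and Foxo4, as for 1.94% of all genes, while the groups overlapped for Foxo1 and Foxo6. The beta cell markers were bright in every sample, with a mean over 8 genes, led by Iapp, of 11.91 to 12.11 in controls and 11.95 to 12.23 in knockouts. The mean of 9 stromal markers, led by Rgs5, was 7.04 to 7.58 in controls and 7.24 to 7.57 in knockouts. The mean of 7 acinar markers, led by Ctrb1, was 8.28 to 9.38 and 8.79 to 9.37, that of 7 endothelial markers, led by Cdh5, 8.49 to 8.92 and 8.41 to 8.59, and that of 5 macrophage markers, led by Csf1r, 6.59 to 7.24 and 6.89 to 6.94. Of the 7 endothelial genes 6 differed negatively (31.6% of all genes did), with a median of -0.18 against 0.08 over all genes. Without controls 3 and 4 all 7 were negative, with a median of -0.30 against 0.03. The control means of 8.92 and 8.70 then lay above those of every knockout. Without those controls 3 of the 7, all lower, had an unadjusted p under 0.05 in limma, and none was called. Of all genes 4.73% had such a p, higher or lower. All knockouts lay above all controls for 1 of the 8 beta cell markers, G6pc2, and 1 of the 9 stromal markers, Rgs5, as for 8.99% of all genes. These 2 genes differed by 0.39 and 0.71, or by 0.14 and 0.40 without controls 3 and 4. The mean of 4 alpha cell markers, led by Gcg, was 10.32 to 10.70 in controls and 10.42 to 10.75 in knockouts, that of 3 delta and PP cell markers, led by Ppy, 11.57 to 11.69 and 11.52 to 11.66, and that of 3 duct markers, led by Sox9, 5.72 to 5.94 and 5.78 to 6.25. The hormone genes Gcg, Sst, Ppy and Iapp lay at 13.53 to 13.98 in every sample. That is near the highest value of the scale, 14.3, where arrays can understate differences. Controls 3 and 4 stood apart from the other samples on the first principal component, at 43.2 and 30.3 against -29.0 to -3.40, and this component held 64.7% of the variance. The same controls had the highest means of 15 immediate early genes, a rapid response to stimuli and to tissue handling, at 10.86 and 10.91 against 9.62 to 10.52 in the other samples. All 15 differed negatively between the groups (31.6% of all genes did), with a median of -0.39, or 0.01 without controls 3 and 4. In limma 0 were called and 0 had an unadjusted p under 0.05, where 13.7% of all genes did and 2.14% as lower. The largest differences were those of Fos at -1.07 (SE 0.60), Ier2 at -0.95 (SE 0.57) and Egr1 at -0.55 (SE 0.34). Without controls 3 and 4 these differed by -0.23, 0.06 and -0.21. For the genes below, the difference without these controls is given where it turned or moved by over 1.5 times.

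Imprinting ties gene dose to growth, and several of these genes act on pathways that FoxO proteins also serve. Igf2 and Grb10 lie on opposite sides of insulin and IGF receptor signalling, which drives FoxO proteins out of the nucleus, Igf2 as a ligand and Grb10 as an adaptor that dampens the receptors. Cdkn1c and Plagl1 restrain the cell cycle, Dlk1 modulates differentiation, and in humans excess of PLAGL1 is linked to transient neonatal diabetes. Because the deleted proteins bind DNA, the promoter windows of the members were read from RefSeq (GRCm38.p6), 250 bases before to 50 after each annotated gene start. Windows were found for 8 of the 10 listed genes, 13 windows in all, of which 6 measured genes have at least 1. Cdkn1c and H19 are named only. The windows of 4 genes are shown because Dlk1 is the member that holds the FoxO core, Peg3 and Rasgrf1 had the smallest p of the members, and Plagl1 holds the ZFP57 hexamer. Capitals mark matches to GTAAACA or its reverse complement TGTTTAC, the core bound by FoxO proteins, or to TGCCGC or its reverse complement GCGGCA, the hexamer bound by ZFP57, a protein that keeps imprints.
Dlk1, chr12:109452573-109452872, plus strand: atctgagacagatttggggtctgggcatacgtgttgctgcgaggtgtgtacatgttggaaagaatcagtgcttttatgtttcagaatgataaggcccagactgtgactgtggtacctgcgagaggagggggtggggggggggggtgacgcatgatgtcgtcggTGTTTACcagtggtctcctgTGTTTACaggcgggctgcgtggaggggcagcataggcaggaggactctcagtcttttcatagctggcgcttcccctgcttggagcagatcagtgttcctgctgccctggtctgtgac
Peg3, chr7:6730370-6730669, minus strand: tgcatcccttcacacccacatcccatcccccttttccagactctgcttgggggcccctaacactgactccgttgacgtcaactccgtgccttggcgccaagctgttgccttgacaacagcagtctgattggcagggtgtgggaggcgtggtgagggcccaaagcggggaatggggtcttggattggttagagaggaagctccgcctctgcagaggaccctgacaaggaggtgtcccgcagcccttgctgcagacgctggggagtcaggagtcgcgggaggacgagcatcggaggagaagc
Rasgrf1, chr9:89909525-89909824, plus strand: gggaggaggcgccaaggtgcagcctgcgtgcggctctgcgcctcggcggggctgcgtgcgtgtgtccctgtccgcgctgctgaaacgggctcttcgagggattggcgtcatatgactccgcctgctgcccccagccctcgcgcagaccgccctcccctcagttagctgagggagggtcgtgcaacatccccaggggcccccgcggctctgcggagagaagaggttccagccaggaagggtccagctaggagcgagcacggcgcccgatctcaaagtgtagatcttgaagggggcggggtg
Plagl1, chr10:13090582-13090881, plus strand: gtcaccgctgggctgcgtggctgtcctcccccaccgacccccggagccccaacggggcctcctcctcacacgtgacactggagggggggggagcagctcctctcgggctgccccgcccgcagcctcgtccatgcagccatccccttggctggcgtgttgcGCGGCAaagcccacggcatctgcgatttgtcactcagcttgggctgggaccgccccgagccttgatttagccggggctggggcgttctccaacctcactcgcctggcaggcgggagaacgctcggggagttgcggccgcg

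The Dlk1 window held TGTTTAC at bases 164 and 184 counted from its 5′ end, and no other member's window held the FoxO core on either strand. Over all 32851 promoter windows 3.65% held at least 1 core and 0.11% held 2 or more. The ZFP57 hexamer was in 5 of the 13 windows, those of Nnat and Plagl1 and 1 window each of Meg3, Igf2 and Grb10, against 11.6% of all windows, 15.7% of those of the genes measured here and 21.0% of the 81 windows of other imprinted genes. The windows of the listed genes had a median of 13 CpG dinucleotides and ranged from 1 to 45, while the median was 7 over all windows and 16 over those of the genes measured here. A match of letters describes the sequence and is not a bound site.

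None of the 8 measured imprinted genes passed the threshold in knockout islets. The transcripts of Peg3 and Rasgrf1, both active from the paternal copy, had the largest differences, at -0.41 and -0.51, and the other 6 lay between -0.06 and 0.23. Before adjustment, limma gave a p under 0.05 for 2 members that were lower in knockouts and 0 that were higher, where 13.7% of all genes had such a p, 11.6% as higher and 2.14% as lower. That share of all genes fell to 3.84% when knockout 5 was left out and to 5.75% when knockout 6 was. Leaving out control 3 gave 8.19%, control 4 gave 6.92%, both of them 4.73%, and control 1 gave 21.1%. The share was 17.5% without control 2 and 17.7% without knockout 7. The members with such a p were then 0 without knockout 5, without knockout 6 or without controls 3 and 4, 1 without control 2, 3 or 4, and 2 without control 1 or knockout 7. The groups did not overlap for 1 member, Peg3, against 10.9% of all genes, 8.99% with knockouts above and 1.94% with knockouts below. Over all genes 1 was called, or 0.00675%. Positive differences were found for 4 of the 8 members and for 68.4% of all genes, negative ones for the other 4 and for 31.6%, and the medians were 0.02 and 0.08. The plot of values by sample shows the spread behind these differences.

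**Figure D1:**
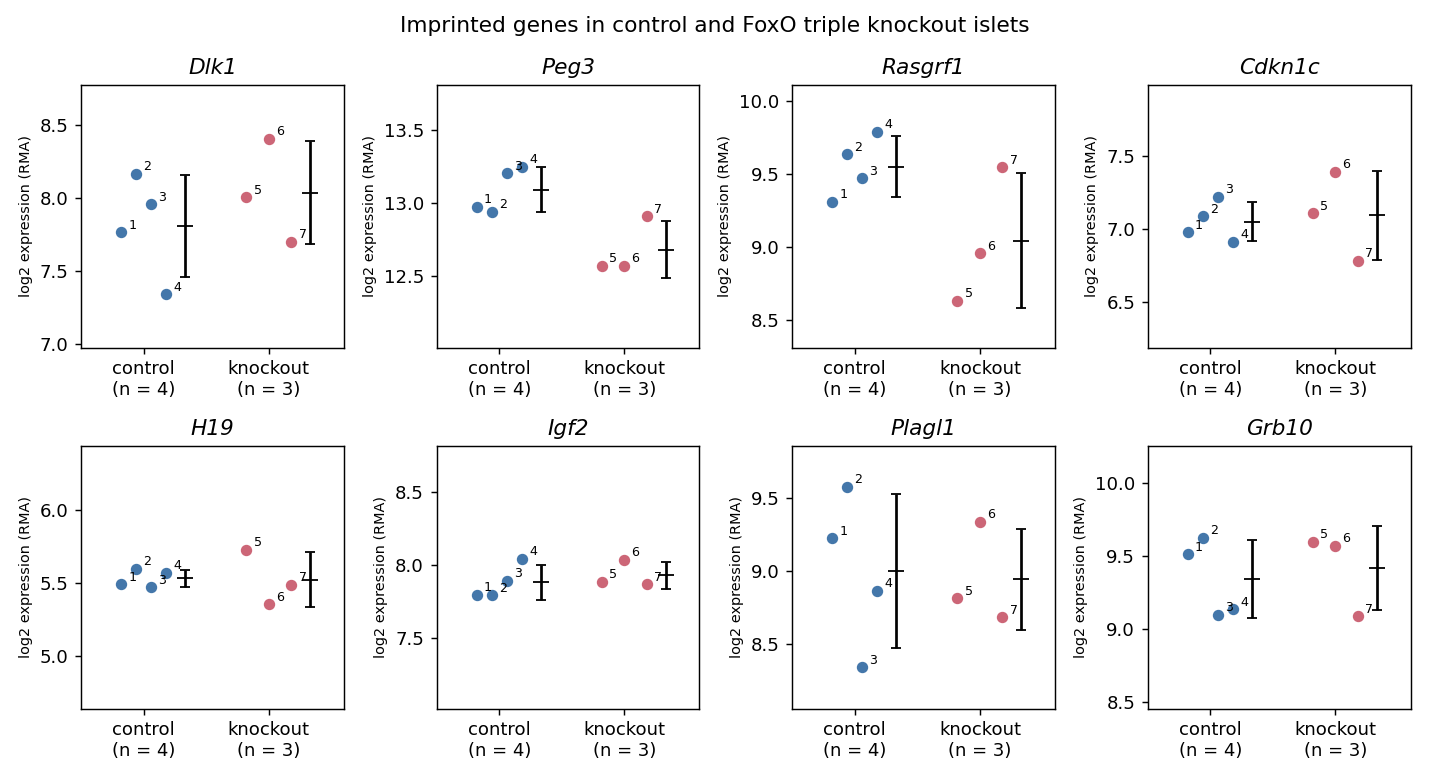
Log2 expression (RMA values, vertical axis, the same height of scale in every panel) of the 8 measured imprinted genes in control samples 1 to 4 and knockout samples 5 to 7, each point 1 array labelled with its number, with the mean and SD of each group as a bar at the right of the points. Peg3 separates the groups, while Rasgrf1 is low in knockouts 5 and 6 but at 9.55 in knockout 7, inside the control range.

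Peg3 encodes a zinc-finger protein and is transcribed from the paternal copy. It was at 12.97, 12.94, 13.20 and 13.25 in controls 1 to 4 and at 12.57, 12.57 and 12.91 in knockouts 5 to 7. All 3 knockout samples lay below all 4 controls, with knockout 7 just under control 2. The means were 13.09 ± 0.16 (SD, n = 4) and 12.68 ± 0.20 (SD, n = 3), a difference of -0.41 (SE 0.13, 95% interval -0.71 to -0.11), which is a level 0.752 times that of controls. It did not pass limma's test over all genes (adjusted p = 0.362, unadjusted p = 0.0135). An exact two-sided permutation test over the samples gave 0.0286, the smallest p that 35 arrangements of 4 and 3 samples allow. That p rests on the same lack of overlap, which 10.9% of all genes showed, and is not separate evidence. Without controls 3 and 4, the samples with the highest Peg3 and the highest immediate early genes, the difference was -0.28 (SE 0.14, limma, adjusted p = 0.951), and the part of those samples in the result was not tested further. The values are near the top of the scale, whose highest value was 14.3, where arrays can understate differences.

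Rasgrf1 encodes an exchange factor that activates Ras in response to calcium, and mice lacking it have fewer beta cells. It was at 9.31, 9.64, 9.47 and 9.79 in controls and at 8.63, 8.96 and 9.55 in knockouts 5, 6 and 7. Knockouts 5 and 6 lay below every control and knockout 7 lay among them, so the groups overlapped. The knockout mean was 9.04 ± 0.46 (SD, n = 3) against 9.55 ± 0.21 (SD, n = 4), a difference of -0.51 (SE 0.21, 95% interval -1.0 to -0.01) that was not called (limma, adjusted p = 0.364, unadjusted p = 0.0456). The exact permutation test gave 0.143 (two-sided). The difference was -0.30 without knockout 5 and -0.76 without knockout 7. Peg3 was likewise low in knockouts 5 and 6 and nearer to controls in knockout 7, whose immediate early gene mean was 10.52 against 9.94 and 9.62 in knockouts 5 and 6. Control 2 had such a mean of 9.71, within the range of those knockouts, with Rasgrf1 at 9.64 and Peg3 at 12.94. The part of these genes in the differences was not tested.

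Among the growth-signalling members, Igf2 and H19 share a locus and an enhancer region but are active from opposite copies, Igf2 from the paternal one as a growth factor and H19 from the maternal one as a long non-coding RNA. Igf2 was at 7.79, 7.79, 7.89 and 8.04 in controls and 7.88, 8.03 and 7.87 in knockouts. All 3 knockout values lay within the control range. Its difference was 0.05 (SE 0.10, 95% interval -0.19 to 0.28, limma, adjusted p = 0.873), or 0.14 without controls 3 and 4. H19 was at 5.49, 5.60, 5.47 and 5.57 in controls and 5.73, 5.35 and 5.49 in knockouts, so that the knockouts included both the highest and the lowest sample. Its difference was -0.01 (SE 0.11, 95% interval -0.26 to 0.25, limma, adjusted p = 0.980), or -0.02 without those controls. H19 lay below the median of its array in all 7 samples, and the values carry no detection call, so these data do not show whether H19 was detected in islets. These intervals are the narrowest of the members.

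Grb10, the receptor adaptor, is active from the maternal copy in most tissues. It was at 9.51 and 9.62 in controls 1 and 2, at 9.10 and 9.14 in controls 3 and 4, at 9.60 and 9.57 in knockouts 5 and 6 and at 9.09 in knockout 7. Each group thus held high and low samples and their ranges nearly coincided. The difference was 0.08 (SE 0.18, 95% interval -0.34 to 0.49, limma, adjusted p = 0.888), and it turned to -0.15 without controls 3 and 4. It was above the upper quartile of the array in all 7 samples, as was Peg3.

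Of the members that act on the cell cycle and differentiation, Cdkn1c encodes a cyclin-dependent kinase inhibitor expressed from the maternal copy. Its values were 6.98, 7.09, 7.22 and 6.91 in controls and 7.11, 7.39 and 6.78 in knockouts. Knockout 6 was the highest and knockout 7 the lowest of all 7 samples. The difference was 0.04 (SE 0.15, 95% interval -0.31 to 0.40, limma, adjusted p = 0.923). In 5 of the 7 samples Cdkn1c lay below the median of the array.

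Dlk1 encodes a delta-like transmembrane protein related to Notch ligands and is expressed from the paternal copy. It was at 7.77, 8.17, 7.96 and 7.34 in controls and at 8.01, 8.41 and 7.70 in knockouts. The highest sample was knockout 6 and the lowest control 4, and the groups overlapped. Its difference of 0.23 (SE 0.23, 95% interval -0.29 to 0.75) was the highest of the members and was not called (limma, adjusted p = 0.672). It was 0.05 without knockout 6, 0.07 without controls 3 and 4, and 0.40 without knockout 7.

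Plagl1 encodes a zinc-finger factor active from the paternal copy. It was at 9.22, 9.57, 8.34 and 8.86 in controls and at 8.81, 9.34 and 8.68 in knockouts. The controls held both the highest sample, control 2, and the lowest, control 3. Its range over the 7 samples, 1.23, was the widest of the members, and its difference of -0.06 (SE 0.29, 95% interval -0.72 to 0.60) did not pass (limma, adjusted p = 0.951). Without controls 3 and 4 it was -0.46, again not called (limma, adjusted p = 0.951).

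**Figure D2:**
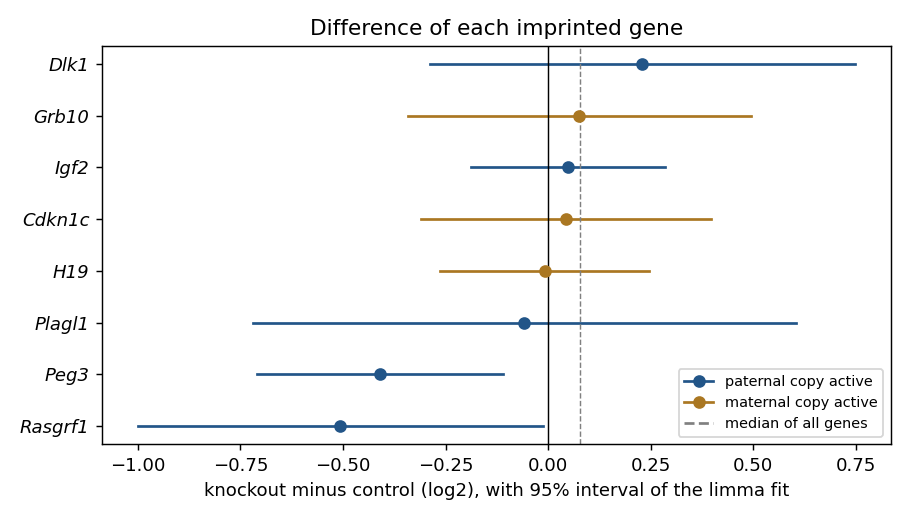
Difference of each measured imprinted gene, knockout minus control on the log2 scale (horizontal axis), with the 95% interval of the limma fit, coloured by the parental copy that is active. The intervals of Peg3 and Rasgrf1 lie below 0 and those of the other 6 genes include it, and the dashed line marks the median of all genes at 0.08.

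**Figure D3:**
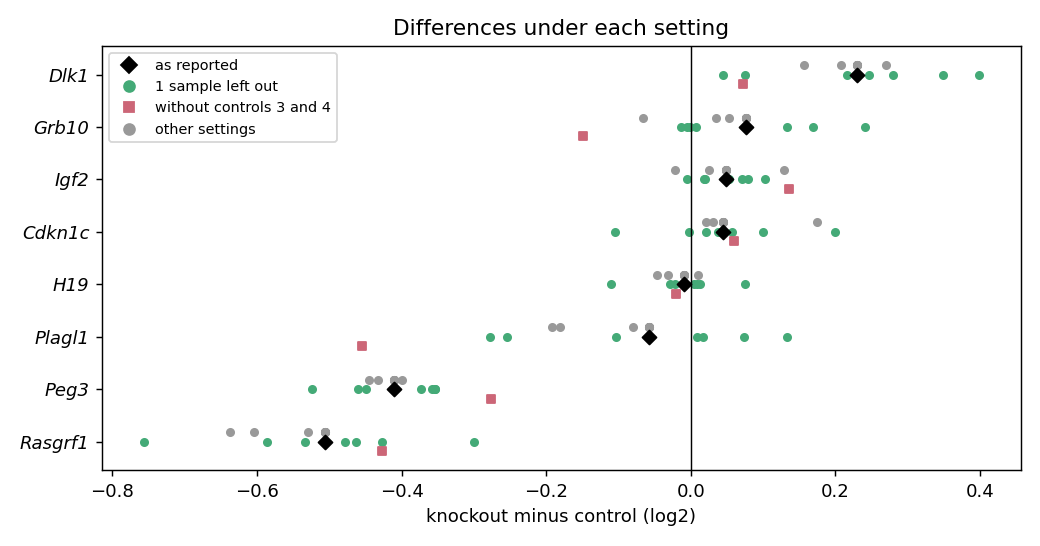
Difference of each measured imprinted gene, knockout minus control on the log2 scale (horizontal axis), as reported (diamonds), with 1 sample left out (green), without controls 3 and 4 (squares) and under the other settings (grey). All points of Peg3 and Rasgrf1 lie below 0 and all of Dlk1 above it, whereas the points of the other 5 genes lie on both sides.

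By parental copy, differences were positive for 2 of the 5 paternally expressed members (median -0.06) and for 2 of the 3 maternally expressed ones (median 0.04). The medians were -0.28 and -0.02 without controls 3 and 4. Neighbours in the same imprinted clusters were set beside the members. In the cluster of Peg3, Usp29, which encodes a ubiquitin-specific peptidase, differed by 0.26 (SE 0.20, adjusted p = 0.568 in limma), of the other sign than Peg3, and the difference between the pair was not tested. In the cluster of Dlk1, Rtl1, derived from a retrotransposon, differed by -0.09 (SE 0.09) and Dio3, a thyroid hormone deiodinase, by 0.23 (SE 0.19), while Rian, Mirg and Begain are not analysed here. Around Cdkn1c, the organic cation transporter gene Slc22a18 differed by 0.24 (SE 0.11) with all knockouts above all controls, Phlda2 by 0.16 (SE 0.25) and the potassium channel gene Kcnq1 by -0.03 (SE 0.10). Around Grb10, Ddc, the aromatic amino acid decarboxylase, differed by 0.25 (SE 0.11) and the actin regulator Cobl by 0.01 (SE 0.38). None of these neighbours was called. Without controls 3 and 4, Rtl1 differed by -0.04, Slc22a18 by 0.12, Phlda2 by -0.05, Kcnq1 by -0.10 and Cobl by -0.49.

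A wider list of 64 other mouse imprinted genes, several of which are imprinted in only some tissues such as placenta or neurons, had 47 measured. None passed the threshold in limma. An unadjusted p under 0.05 was found for 7 genes higher in knockouts (11.6% of all genes) and for 1 lower (2.14%), and the groups did not overlap for 3 with knockouts above (8.99%) and 1 below (1.94%). Without controls 3 and 4, where 4.73% of all genes had such a p, 3 of the 47 did in place of 8. These were Qpct and Cd81, both higher, and Th, lower at -0.42, which was not among the 8. The number was 12 without control 1 (21.1% of all genes) and 11 without knockout 7 (17.7%). It was 4 without control 4 (6.92%) or knockout 6 (5.75%), and 2 without knockout 5 (3.84%). Positive differences were found for 33 of the 47, or 70.2%, against 68.4% of all genes, and the median was 0.06 against 0.08. The median was 0.04 without controls 3 and 4. The smallest p belonged to Qpct, glutaminyl cyclase, an enzyme that modifies the amino end of peptide hormones. It was at 5.89, 6.36, 5.68 and 5.89 in controls and 6.91, 6.96 and 6.61 in knockouts. These values lay below the median of the array in all 7 samples, and they carry no detection call. All 3 knockouts lay above all 4 controls. The difference was 0.87 (SE 0.17, limma, adjusted p = 0.362), and it was 0.70 without controls 3 and 4.

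Cd81, a tetraspanin of the cell surface, was at 11.16, 11.24, 10.56 and 10.60 in controls and 11.79, 11.79 and 11.39 in knockouts, without overlap. Its difference of 0.77 (SE 0.20, limma, adjusted p = 0.362) was 0.46 without controls 3 and 4, which were its lowest samples. The remaining genes higher at an unadjusted p under 0.05 were Pon3, a paraoxonase, at 0.81 (SE 0.29), Gatm, of creatine synthesis, at 0.75 (SE 0.29), Ube3a, a ubiquitin ligase, at 0.74 (SE 0.27), Sgce, a sarcoglycan, at 0.71 (SE 0.28), and Casd1, a sialic acid acetyltransferase, at 0.53 (SE 0.18). Their groups overlapped. Controls 3 and 4 were the lowest samples for these 5 genes, and without them the differences were 0.38, 0.26, 0.36, 0.27 and 0.33. Mcts2, a retrogene copy that lies within H13 and resembles Mcts1, was the gene lower at that p, with a difference of -0.47 (SE 0.17) that was -0.48 without controls 3 and 4, and its probe set may also read its relatives.

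**Figure D4:**
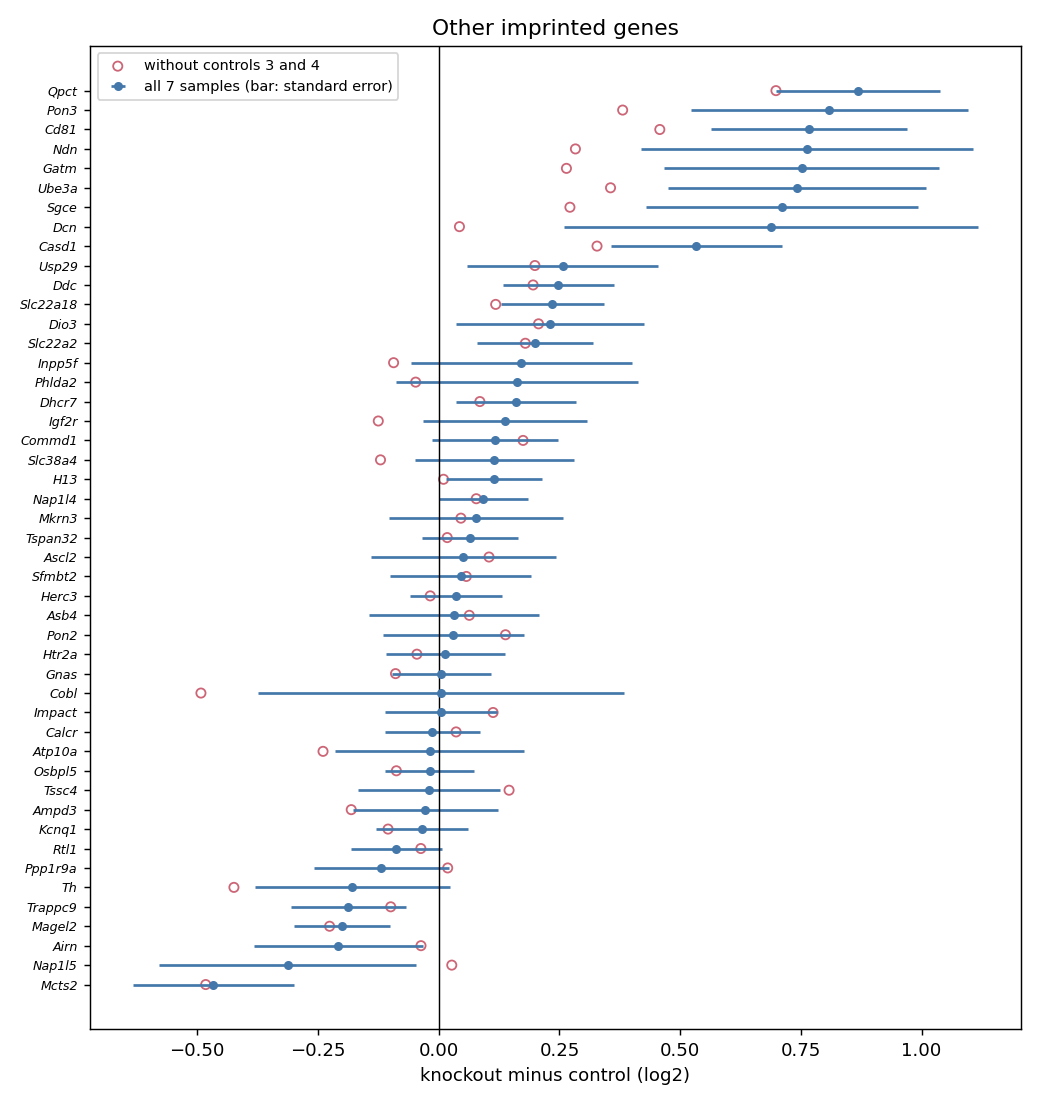
Difference, knockout minus control on the log2 scale (horizontal axis), of the 47 other measured imprinted genes (vertical axis), as filled points with the standard error from all 7 samples and as open circles without controls 3 and 4. Qpct is highest at 0.87 and keeps 0.70, while Pon3, Gatm, Ube3a and Sgce move from 0.71 to 0.81 down to 0.26 to 0.38.

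Genes that act with the members were also listed. Of 14 measured genes of imprint maintenance, which methylate DNA or guard imprints, the difference was positive for 4 and negative for 10 (31.6% of all genes were negative), the median was -0.11, and 0 were called. The maintenance methyltransferase Dnmt1 differed by -0.28 (SE 0.12) and the de novo methyltransferase Dnmt3a by -0.44 (SE 0.16), the latter without overlap between groups. These 2 of the 14 were the ones with an unadjusted p under 0.05 in limma (adjusted p = 0.364 and 0.362), where 13.7% of all genes had such a p and 2.14% had it as lower. With controls 3 and 4 left out they differed by -0.20 and -0.25, and 0 of the 14 had such a p (4.73% of all genes did). Of the 14, 11 were then negative, with a median of -0.11 against 0.03 over all genes. The share of negative differences over all genes was not counted for that setting. Tet3, a DNA demethylase, differed by -0.16 (SE 0.09), and Zfp57 by -0.09 (SE 0.10), or -0.14 without those controls. With all samples the knockouts lay below all controls for 2 of the 14, Dnmt3a and Tet3, against 1.94% of all genes.

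In the IGF and insulin receptor axis, differences were positive for 10 of 19 measured genes (68.4% of all genes). The median was 0.01, or -0.03 without controls 3 and 4. In limma 1 lower gene had an unadjusted p under 0.05 (2.14% of all genes), and 0 were called. The groups did not overlap for 2 genes with knockouts below (1.94%) and 1 with knockouts above (8.99%). Without controls 3 and 4, 2 lower genes had such a p, Igf1r and Igfbp3 at -0.39, where 4.73% of all genes did, higher or lower. Igf1r, the receptor that binds IGF ligands, was at 10.20, 10.58, 10.13 and 10.26 in controls and 9.46, 9.80 and 9.96 in knockouts. All knockouts lay below all controls, and the difference was -0.55 (SE 0.16, limma, adjusted p = 0.362), or -0.65 without controls 3 and 4. The insulin receptor-related receptor Insrr differed by -0.46 (SE 0.23), or -0.17 without those controls, and the receptor substrate Irs1 by -0.23 (SE 0.11). Igf2r, the imprinted receptor that clears Igf2, differed by 0.14 (SE 0.17, limma, adjusted p = 0.750), and -0.13 without controls 3 and 4.

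Of 18 Notch pathway genes, the setting of Dlk1, 11 differed positively (68.4% of all genes did). The median was 0.03, or -0.03 without controls 3 and 4, against 0.08 and 0.03 over all genes. In limma 0 of the 18 had an unadjusted p under 0.05, where 13.7% of all genes did. Notch3, a receptor, differed by -0.27 (SE 0.13), or -0.15 without controls 3 and 4, Lfng, a glycosyltransferase that tunes Notch receptors, by 0.24 (SE 0.12), or 0.15, and the target Hey1 by 0.19 (SE 0.11). Of 13 other cyclin-dependent kinase inhibitors, cyclins and their kinases, the setting of Cdkn1c, 10 differed positively (68.4% of all genes did), the median was 0.28, or 0.05 without controls 3 and 4, and 0 were called. Ccne2, cyclin E2, differed by 0.78 (SE 0.22), with all knockouts above all controls, and Cdkn2c, an inhibitor of cyclin D kinases, by 0.92 (SE 0.37). These 2 of the 13 had an unadjusted p under 0.05 (limma, adjusted p = 0.362 for each), where 13.7% of all genes did and 11.6% as higher. Without controls 3 and 4 the difference was 0.54 for Ccne2 and 0.32 for Cdkn2c. Ccne1, cyclin E1, differed by 0.28 (SE 0.12), or 0.18 without them. Cdkn1a and Cdkn1b, the closest relatives of Cdkn1c, differed by 0.79 (SE 0.43) and 0.28 (SE 0.15), and by 0.07 and 0.08 without controls 3 and 4.

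Among all genes, those whose values followed a member's most closely over the 7 samples were found by Pearson's r, as a description in which all points share their arrays. They were Ush1c (r = 0.993) and Srrm2 (0.991) for Peg3, Dhx30 (0.993) and Cdc42bpb (0.988) for Rasgrf1, and Col11a1 (0.994) and Pmis2 (0.992) for Dlk1. For Cdkn1c they were Vax2 (0.987) and Rbpms2 (0.986), for Plagl1 Pde2a (0.988) and Ifi203 (0.985), and for Grb10 Otud6b (0.985) and Col6a2 (0.981). Igf2 was followed by F11 (0.985) and Slco1b2 (0.971), and H19 by Aadacl4fm1 (0.917) and Il4 (0.915). No member was among the genes most like another. The genes named here were picked as the highest of all genes over 7 arrays, which by itself favours a high r. By ranks (Spearman's rho) the pairs ranged from 0.679, for Grb10 with Col6a2, to 1, and Peg3 with Srrm2 had 0.821.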

How the data were processed

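Per the submitters' processing notes, the authors used RMA in Affymetrix Expression Console, and the deposited values are on a log2 scale, 1 per probe set and array. RMA removes background, brings arrays to a common distribution at the level of probes and combines the probes of a set. The deposited values still differed between arrays, with medians of 7.11 to 7.29. Upper quartiles were 8.63 and 8.81 in controls 3 and 4 against 8.88 to 8.95 in the other samples. That the scale is log2 follows from the range of the values, 2.50 to 14.3. Neither versions nor a genome build are stated in those sources. Of 23238 probe sets, 14939 had 1 symbol, 989 several and 7310 none, and 14884 matched RefSeq of GRCm38.p6 by Entrez ID. The 14807 genes were compared over 4 control and 3 knockout samples, grouped by title, with limma 3.58.1 in R 4.3.3 (two-sided, no covariates, no filter, Benjamini-Hochberg over all genes). The number of arrays limits the precision. Intervals are those of the moderated fit.

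The imprinted genes, the lists and the alternatives were chosen with earlier results of these data known. Named genes were all members, their cluster neighbours, the 8 other imprinted genes and the 3 genes of each related list with the smallest p, and the 2 genes most like each member. Zfp57, Igf2r, Igfbp3, Th, G6pc2, Cdkn1a and Cdkn1b were added after their values were seen. Alternatives were leaving out dim genes, quantile normalization, the mean over probe sets of 1 gene, centring on the array median, testing all probe sets, array weights, a prior with trend and robust options, no moderation, a minimum difference of 1, and leaving out samples.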

Additional observations from a re-analysis of the deposited data

How the results depend on the processing

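No member and no other imprinted gene was called under any of the 17 alternatives that tested it, in limma or without moderation, and adjusted p values for the members were 0.175 at the lowest. The filter on dim genes left 6 of the 8 members, without Cdkn1c and H19, and 27 of the 47 other genes. The members' median of 0.02 was -0.044 after quantile normalization, -0.085 without controls 3 and 4, and -0.055 to 0.076 with single samples left out. The median of the other imprinted genes was 0.04 to 0.13 with single samples left out and 0.012 after quantile normalization, where 26 of 47 were positive in place of 33. Peg3 was negative under every alternative, from -0.52 to -0.28, and had an unadjusted p under 0.05 in 13 of 17. Rasgrf1 was also negative in every one, from -0.76 to -0.30, with such a p in 8, and Dlk1 was positive in every one, from 0.05 to 0.40. The other 5 members changed sign under some. Quantile normalization gave -0.067 for Grb10, -0.021 for Igf2 and 0.011 for H19. Leaving out controls 3 and 4 gave -0.15 for Grb10. With single samples left out the range was -0.013 to 0.24 for Grb10, -0.0047 to 0.10 for Igf2, -0.11 to 0.076 for H19, -0.28 to 0.13 for Plagl1 and -0.11 to 0.20 for Cdkn1c. The cause of these changes was not tested. The plot of differences under each setting shows them all. No paired analysis was made because the sources used here do not say which samples were littermates.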
